A study of Mus musculus with 2 samples.

Results

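Pseudo-biopsy fragments are short pieces of single myofibers, obtained by cutting small portions out of the flexor digitorum brevis (FDB) with scissors before digestion, in the manner of a needle biopsy. They were set against whole myofibers, released from FDB muscles dissected with both tendons. Of 93 wells labelled as fragments, 83 (89.2%, 95% limits 81.1 to 94.7) held at least 5000 gene counts with at least 20% of them from mitochondrially encoded (mt-) genes, and these 83 fragments are described here. The same limits kept 346 of 670 whole myofibers (51.6%, limits 47.8 to 55.5), so that both groups were of like quality. The series held 763 wells in all. The limits leave out the best whole myofibers, and 168 of these, with over 5000 genes and under 20% mt- counts, are given only as a reference ("well-preserved whole myofibers").

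All wells came from 1 C57BL/6J mouse over 3 months of age, according to the labels. The study's methods name adult males of C57BL/6J and DBA2 backgrounds, and the labels do not tie either group to another strain. No treatment was given to the animal, and both groups shared the collagenase digestion and the large-particle sorter. Cells of 1 mouse are not biological replicates, so no p-value was computed, and the 8 plates and 2 sequencing lanes are technical repeats. Fragments filled row 8 of every plate and whole myofibers filled rows 1 to 7, so that the kind of preparation and the plate row cannot be told apart. For this reason each value of the fragments is set beside the 8 plates and beside the range over the 7 rows of whole myofibers. The wells labelled as whole came from 2 sorting gates. According to the study, one held intact fibers, while the other, of short axial length, held rod-shaped pieces that looked like the pseudo-biopsy fragments. The gate of each well is not given in the table used here, so the whole myofibers compared here, with their high mt- share, may include broken ones.

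A myofiber is a long multinucleated cell in which sarcomeres of myosin, actin and titin contract, fed by glycolysis and by rows of mitochondria. Its speed follows the myosin heavy chain (Myh) gene it uses: Myh7 in slow fibers, and Myh2, Myh1 and Myh4 in fast fibers of increasing speed (types 2A, 2X and 2B), while Myh8 is the perinatal form. Between the fibers lie capillaries, nerve endings and connective tissue, whose fibroblasts make collagen and small proteoglycans. RNA from these neighbours can travel with a fiber into a well, and in such a well fewer cells of a type and less RNA per cell cannot be told apart.

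The fragments had a median of 32405 gene counts per cell, with a lowest value of 5544, against 21794 in the whole myofibers. Their median mt- share was 57.3%, against 55.7% in the whole myofibers and 5.69% in the well-preserved ones. Per added spike-in molecule, the fragments had a median of 249.5 counts (81 cells) and the whole myofibers 254.3 (317 cells). The order turned with the plate: fragments lay lower on plates 705 to 709, as with 178 against 268 on plate 705, and higher on plates 710 to 712, as with 519 against 299 on plate 711. At an equal depth of 5000 counts per cell, drawn at random without loss of any cell, the median number of genes was 1045 in fragments and 1158 in whole myofibers. The 10 fragments outside the limits comprised 7 with too few counts and 7 with too low an mt- share, of which 4 met both. By mt- share, the nearest fragments inside the limit had 21.1% and 24.2%, and those just outside had 19.9% and 18.2%. By counts, the nearest inside had 5544 and 5955, and those outside 2366 and 306. The barcodes of all 763 wells were distinct.

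Muscle RNA was present in every well. Ttn (titin, the sarcomere's molecular spring), Acta1 (skeletal actin), Neb, Tpm1, Mylpf and Ckm (muscle creatine kinase) had counts in 83 of 83 fragments and in 346 of 346 whole myofibers. Ttn, the most abundant nuclear gene, reached 48818 CPM in the fragments (CPM, a gene's counts scaled to a fixed total of nuclear counts) and 44572 CPM in the whole myofibers, and Acta1 reached 26749 and 24192 CPM. Summed over cells, the log2 ratio of fragments over whole myofibers had a median of -0.03 over the 5460 nuclear genes with at least 200 counts, and 5% to 95% of genes lay between -0.77 and 0.43. Fragments and whole myofibers were thus near each other for most genes.

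Myh4, the heavy chain of the fastest fibers, had the highest ratio among the genes that were higher in the fragments on every plate. It was 2435 CPM in the fragments, 276.6 CPM in the whole myofibers and 283.8 CPM in the well-preserved whole myofibers, a log2 ratio of fragments over whole myofibers of 3.14 (counting limits 3.05 to 3.23, SD over 8 plates 1.35). Over the plates the fragments ranged from 349.5 to 5582 CPM with a median of 2027, and the whole myofibers from 174.2 to 471.4 with a median of 248.2. Myh4 was higher in the fragments on 8 of 8 plates, though the lowest fragment plate lay within the range of the whole plates. No row of whole myofibers exceeded 390.1 CPM. One fragment held 26.2% of the fragments' Myh4 counts, and without the top cell of each group the log2 ratio was 2.85. Of the 5460 genes, 0.751% were higher in fragments on all 8 plates and 5.84% lay above all 7 whole rows.

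The fast Myh genes lie side by side on chromosome 11 and differ by few bases, so the end of each coding region is shown as an example of how close they are. These are the last 66 coding bases, the length of a read, in GRCm38 on the plus strand (GENCODE vM21 transcripts), and capitals mark where Myh4 differs from Myh1 or Myh2, or where those differ from Myh4.
Myh4 (chr11:67260275-67260340): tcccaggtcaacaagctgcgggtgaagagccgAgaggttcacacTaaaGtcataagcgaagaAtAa
Myh1 (chr11:67224404-67224469): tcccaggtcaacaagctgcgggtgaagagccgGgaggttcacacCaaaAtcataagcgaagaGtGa
Myh2 (chr11:67197323-67197388): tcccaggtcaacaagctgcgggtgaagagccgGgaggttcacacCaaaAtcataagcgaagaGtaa
Myh1 differed from Myh4 at 5 of these positions and Myh2 at 4. Of all 66-base windows of the Myh4 transcript (GRCm38 chr11:67238029-67260446 for the gene), 12.4% also occurred in a transcript of Myh1, Myh2 or Myh8. A read from such a window cannot be assigned to 1 gene, and how such reads were treated was not tested. The other windows tell Myh4 from these 3 genes.

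The other 4 Myh genes lay close in both groups. Myh1 was 5810 CPM in fragments and 5390 CPM in whole myofibers (log2 ratio 0.11, SD over plates 0.33), and higher on 5 of 8 plates. Myh2 was 3064 and 3151 CPM (-0.04, SD 0.30). Myh7 was 184.3 and 202.5 CPM (-0.14), lower on 7 of 8 plates, and Myh8 was 120.2 and 112.3 CPM (0.10). These ratios were below the spread between plates, and in the well-preserved whole myofibers Myh8 was higher, at 711.9 CPM.

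The excess came in part from fragments in which Myh4 was the leading Myh gene. By the largest of the 5 genes in cells with at least 20 Myh counts, 13 of 83 fragments were Myh4-dominant (15.7%, limits 8.61 to 25.3), compared with 1 of 344 whole myofibers (0.291%, limits 0.00736 to 1.61) and 1 of 168 well-preserved ones. Of the other fragments, 60 were Myh1-dominant and 10 Myh2-dominant, and none was Myh7- or Myh8-dominant, which allows up to 4.35% for each by the exact limit. All 10 Myh2-dominant fragments were on lane 1, and so were 41 of the 47 such whole myofibers, so that this class differed by lane in both groups. Of the whole myofibers, 296 were Myh1-dominant and 47 Myh2-dominant. The Myh4-dominant fragments were found on 7 of 8 plates, with 3 each on plates 706 and 710 and none on plate 709, and on both lanes, with 7 of 41 fragments on lane 1 and 6 of 42 on lane 2. Their Myh4 share of the 5 genes ran from 40% to 85.9%, and the highest rested on 1045 Myh4 counts of 1217.

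Myh4 was also higher in the other fragments. The median Myh4 share per cell was 8.03% over all fragments, 2.00% in whole myofibers and 1.47% in the well-preserved ones, and it was 7.17% over the 70 fragments that were not Myh4-dominant. A share of at least 10% was reached by 35 of 83 fragments and by 19 of 344 whole myofibers. On each plate the median over these other fragments exceeded that of the whole myofibers. It was highest, at 14.4% and 13.5%, on plates 706 and 710, which held 3 Myh4-dominant fragments each, and it was 5.09% against 1.80% on plate 709, which held none. The whole myofibers of plates 706 and 710 had medians of 1.79% and 1.81%, near the 2.00% over all plates. Wells of a plate were pooled before amplification, and whether counts of 1 well reached another was not tested. Without the Myh4-dominant cells of both groups the log2 ratio of Myh4 was 1.70.

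**Figure D1:**
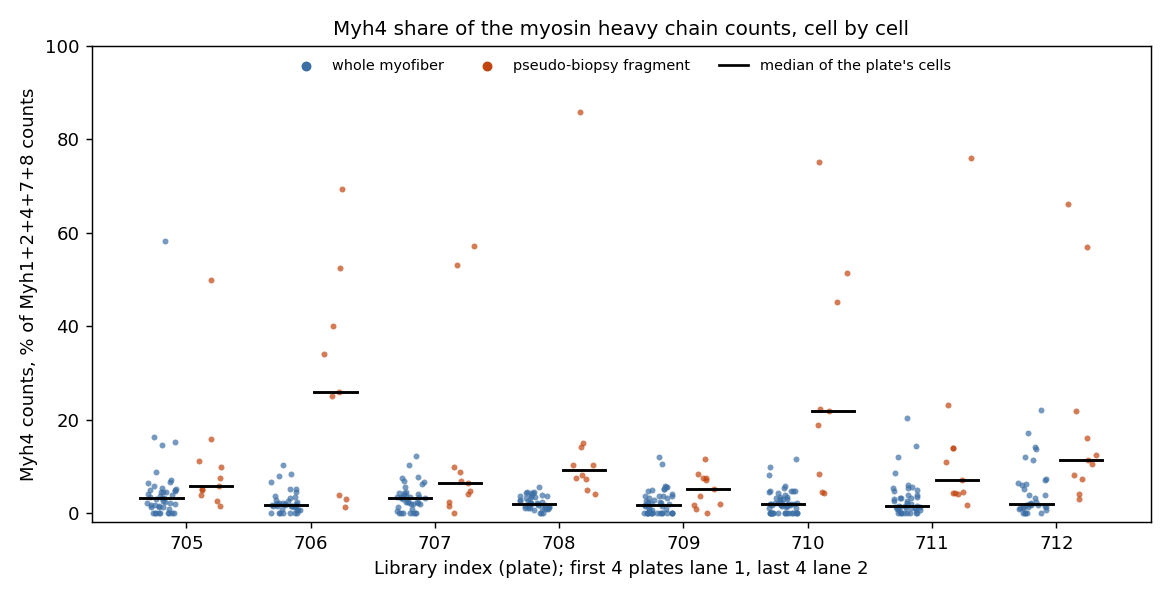
Myh4 as a percentage of all 5 myosin heavy chain genes' counts (y axis) for each fragment (orange) and whole myofiber (blue) on the 8 plates (x axis, library index), with the plate's median as a black bar. Fragments at 40% or more are seen on 7 of 8 plates, whereas 1 whole myofiber, on plate 705, reaches 58.2%.

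The Myh4-dominant fragments were set against the other fragments over cells and without a test. Of the 1052 genes with at least 200 counts, 27 (2.57%) were at least 2-fold higher in them and 48 (4.56%) at least 2-fold lower, among them Myh genes, whose values defined the class. The genes that follow were chosen after their values were seen. Mylk4, a myosin light chain kinase, was 576 against 259 CPM, and Mybpc2, the fast myosin-binding protein C, was 908 against 673 CPM. Tnni1 (slow troponin I) was 350.4 against 720.1 CPM, and Mb, the oxygen-binding myoglobin, was 467 against 908 CPM. Tnnt1 (slow troponin T) was 320.2 against 821 CPM, with 43.5% of the counts of the Myh4-dominant fragments in 1 of them. Actn3, the fast alpha-actinin, lay close at 2321 against 2069 CPM, as did Pvalb, the calcium buffer of fast fibers, at 3643 against 3941 CPM. The median mt- share was 48.5% in the Myh4-dominant fragments and 59.4% in the others.

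Of the 5460 nuclear genes, 19 were at least 2-fold higher in the fragments (0.348%) and 134 at least 2-fold lower (2.45%). The count minimum applied to both groups summed, and the whole myofibers held most of the nuclear counts. It therefore favoured genes that were high in whole myofibers. The 134 had median counts of 36 in fragments and 300 in whole myofibers, against 159 and 185 for the 19. The numbers of higher and lower genes thus cannot be weighed against each other. Of the 19, 6 were higher on all 8 plates and 18 lay above every row of whole myofibers, both of which the 2-fold limit favours, but in 9 a single fragment held over 25% of the fragments' counts, and 8 remained past 2-fold when each gene lost its top cell in each group. N4bp2l2 had the largest ratio (2119 against 117.1 CPM), and 72.9% of its fragment counts lay in 1 fragment. Of the 134, 63 were lower on all 8 plates (2.56% of all genes were) and 84 lay below every whole row (8.17% of all genes did). Without top cells all 134 were still past 2-fold, but this step itself favours lower ratios and is no support. The top of 83 fragments tends to hold a larger share of a gene's counts than the top of 346 whole myofibers. In all, 214 genes were at least 2-fold lower without top cells.

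Smim20 was the next gene that was higher on every plate. It encodes a small membrane protein of mitochondria that takes part in assembly of cytochrome c oxidase, and lies on chr5:53267083-53278540. Its level was 327 CPM in fragments and 106 CPM in whole myofibers (log2 1.62, limits 1.45 to 1.79). Fragment plates ranged from 220 to 653 CPM with a median of 310 and whole plates from 81.0 to 144.5 with a median of 99.3, without overlap. The size of the ratio varied with how cells were weighted or chosen: it was 2.92 when each cell counted equally, and 0.89 among cells with at least 5000 genes detected. Myom2, which encodes the M-band protein myomesin 2 of fast fibers, was 97.0 against 33.5 CPM (log2 1.53) and its plates did not overlap either, with 56.0 to 201.7 CPM in fragments and 20.1 to 46.4 CPM in whole myofibers. Myom2 was named after its values were seen.

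Other genes that led among those of at least 1000 counts and higher on all 8 plates differed less than 2-fold. They comprised Cox7a2, Ndufv2 and Atp5f1 of the respiratory chain and ATP synthase (log2 ratios 0.71, 0.52 and 0.42), Mylk4 (0.69), Atp2a1, the fast calcium pump of the sarcoplasmic reticulum (0.40), and Fsd2, Cap2 and Hdgf (0.40, 0.35 and 0.28). Gm49369 (0.35) overlaps other genes, and its counts may be shared with them. Atp5f1 (260.5 CPM) and Hdgf (186.7 CPM) lay within the range over whole rows, whose highest values were 304.4 and 214.3 CPM. Ndufv2 (311.8 CPM) and Cap2 (267.9 CPM) were just above the highest whole row, at 300.0 and 265.9 CPM. Against rows 5 to 7 alone, Hdgf was at -0.03. The rest of these genes lay above every whole row. Atp2a1 was 1604 CPM in fragments and 1212 CPM in whole myofibers, where rows ranged from 1020 to 1491 CPM. In the well-preserved whole myofibers it was 3160 CPM.

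**Figure D2:**
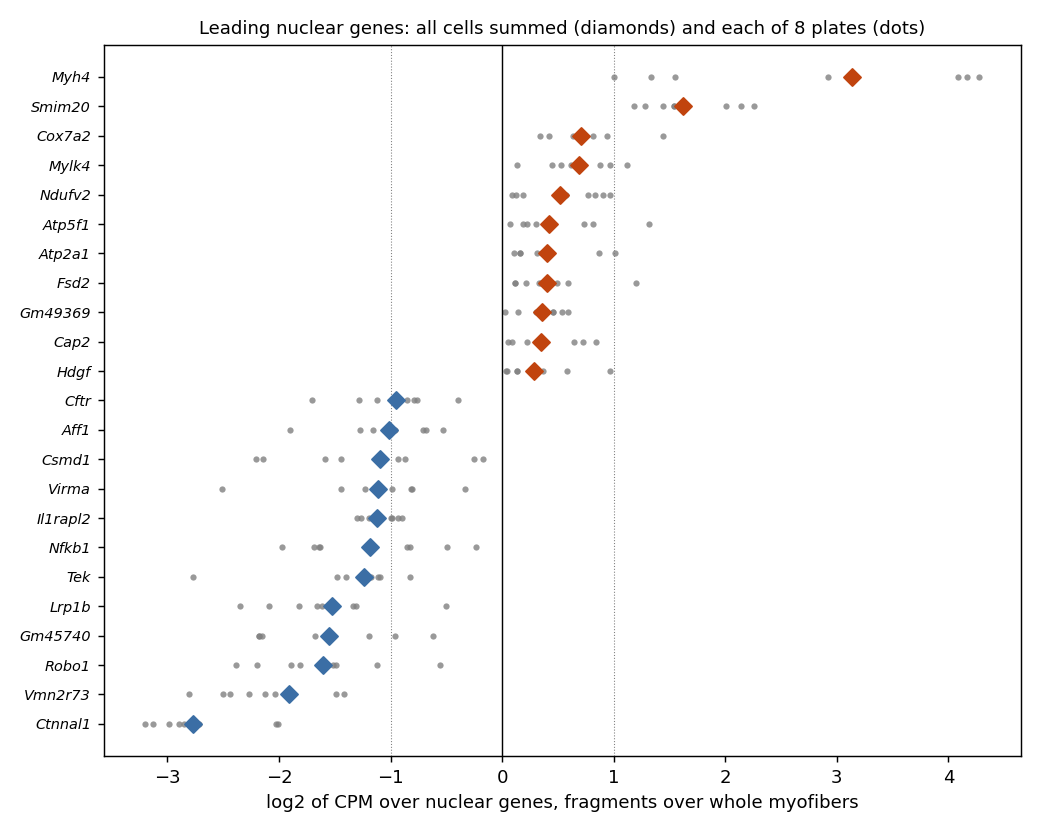
The log2 ratio of CPM over nuclear genes, fragments over whole myofibers (x axis), for the leading higher and lower genes of at least 1000 counts with 1 direction on all 8 plates (y axis). Diamonds are sums over all cells, grey dots the plates, and dotted lines mark 2-fold, with Myh4 at 3.14 and Ctnnal1 at -2.77 as the ends of the range.

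Among the lower genes, those of connective tissue stood out. The list of fibroblast and tendon genes, drawn up with earlier results known, had 6 measured members. Of these, 3 were at least 2-fold lower (Gsn, Col1a2 and Dcn) and none higher, beside 2.45% and 0.348% of all genes. Measured members had passed the same count minimum, which favours genes that are high in whole myofibers. The list's median log2 ratio was -1.14, against -0.03 over all genes, and it was -2.06 without lane 2. Gsn, the actin-severing gelsolin, was 95.2 CPM in fragments and 312 CPM in whole myofibers (log2 -1.71, limits -1.96 to -1.48), where rows ranged from 205 to 530 CPM. Dcn (decorin, a proteoglycan that binds collagen) was 62.8 against 186 CPM, and Col1a2, a chain of type I collagen, 28.1 against 88.7 CPM. Each of these was lower on 7 of 8 plates, with overlapping plate ranges. Sparc and Smoc2 differed less, at log2 ratios of -0.45 and -0.20. In the well-preserved whole myofibers Gsn was 52.6, Dcn 28.9 and Col1a2 12.4 CPM, below both groups.

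The 18 genes of the list summed to 580 CPM in fragments and 1134 CPM in whole myofibers (log2 -0.97, limits -1.07 to -0.87). The summed level was lower in fragments on 7 of 8 plates, and whole rows ranged from 898 to 1894 CPM. Cell by cell, however, the medians were close, at 448 CPM in fragments and 463 CPM in whole myofibers. The difference lay in the upper end: 54 of 346 whole myofibers (15.6%, limits 11.9 to 19.9) reached 2000 CPM, a limit set after the values were seen, and these held 57.1% of the list's counts. They were found on 8 plates and in 7 rows. Of the fragments, 2 of 83 (2.41%, limits 0.293 to 8.43) reached it, holding 4.63% of their counts, and of the well-preserved whole myofibers 5 of 168.

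Of the other lower genes, 7 that take part in inflammation are given, chosen because they were low, so that they say nothing about such genes as a group. Ccl2, a chemokine that attracts monocytes, was 13.4 CPM in fragments and 79.8 CPM in whole myofibers (log2 -2.57, limits -3.26 to -1.95). Fragment plates ran from 0 to 22.8 CPM with a median of 14.6 and whole plates from 49.7 to 105 CPM with a median of 85.1, without overlap. Cxcl1, a chemokine for neutrophils, was 29.9 against 117 CPM and lower on 8 of 8 plates. Nfkb1, a subunit of NF-kappaB, and its inhibitor Nfkbia were at log2 ratios of -1.19 and -1.12, the latter higher on 2 plates, and Tnfaip6, Bcl3 and Lyz2 at -2.11, -2.39 and -1.75. Lyz2 (macrophage lysozyme) was the only measured gene of the 17 on the immune list, so that immune cells could hardly be assessed. Its level in fragments lay within the range over whole rows, and its log2 ratio was 3.48 on 1 of the plates. Ccl2 and Cxcl1 can be made by fibroblasts and by other cells, and their source was not tested. Further stromal genes, also chosen afterwards, were Apod (-2.40), Itih5 (-2.09), Serping1 (-1.68) and Dpt (-1.57).

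By list median, the markers of other neighbours that follow differed less than the fibroblast and tendon list. Of all genes, 0.348% were at least 2-fold higher and 2.45% lower, and lists of 7 or fewer measured members say little by such counts. The endothelial list had a median log2 ratio of -0.10 with 1 of 14 measured members past 2-fold, Tek (140.3 against 330.4 CPM), while Flt1, a receptor for vascular growth factor, was 282 against 301 CPM. Smooth muscle and pericyte genes had a median of -0.01 (0 of 7), satellite cell genes -0.04 (0 of 4, among them Des and Itga7, which fibers also make), Schwann cell genes -0.60 (0 of 3), and hemoglobin genes -0.62 (0 of 2). Summed over its genes, the Schwann cell and axon list was 418 CPM in fragments and 536 CPM in whole myofibers (log2 -0.36), lower on 7 of 8 plates. The hemoglobin ratio spread widely over plates, from -5.22 to 6.72 for Hbb-bs. Car3 was the only measured adipocyte gene (0.00), and no keratinocyte gene was measured. Summed endothelial markers were 1427 CPM in fragments, 1577 CPM in whole myofibers and 235.9 CPM in the well-preserved whole myofibers, so both groups of lower quality held more of them.

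Among genes of at least 1000 counts that were lower on all 8 plates, the lowest ratio belonged to Ctnnal1. Ctnnal1, an alpha-catenin-like gene on chr4:56810935-56865188, was 56.1 CPM in fragments and 383 CPM in whole myofibers (log2 -2.77, limits -3.09 to -2.47), without overlap between fragment plates (21.2 to 87.3 CPM) and whole plates (177 to 664 CPM). Among the rows of whole myofibers it was 230, 440, 834 and 584 CPM in rows 1 to 4 and 95.6, 39.7 and 92.8 CPM in rows 5 to 7. The fragments in row 8 lay within the latter. Robo1, a guidance receptor, had the same profile, with 302 to 609 CPM in rows 1 to 4, 90.5 to 162 CPM in rows 5 to 7 and 104 CPM in fragments. Virma, a subunit of the RNA methylation complex, was 220 to 349 CPM, then 94.9 to 103.3 CPM, and 100.7 CPM in fragments. Their ratios thus differed by row among the whole myofibers alone. The other lower genes of the leading set were Vmn2r73, Gm45740, Lrp1b, Tek, Nfkb1, Il1rapl2, Csmd1, Aff1 and Cftr, from -1.91 to -0.95. Most of them had the same split by row: against rows 5 to 7 alone the log2 ratio was -0.40 for Vmn2r73, -0.37 for Gm45740, -0.32 for Il1rapl2, -0.31 for Aff1, -0.25 for Lrp1b and Tek, and -0.51 for Csmd1. Nfkb1 was at -1.15 against these rows.

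Of the 134 lower genes, 61 were past 2-fold against rows 5 to 7 alone, and 57 against row 7, next to the fragments. These genes were picked with the same fragment values and with these rows included, which favours such numbers, so they are no support. Among all genes that reached the count minimum there, 20 of 2928 were at least 2-fold lower against rows 5 to 7 and 16 of 1702 against row 7. Gsn was 95.2 CPM in fragments, 290 CPM in rows 1 to 4 and 345 CPM in rows 5 to 7, and Ccl2 was 13.4, 75.5 and 86.3 CPM. The fragments thus lay below both blocks of rows for Gsn and Ccl2, whereas for Ctnnal1 (56.1, 579 and 82.5 CPM) they lay far below the first block only. Dcn and Col1a2 were at log2 ratios of -1.62 and -1.99 against rows 5 to 7, and Fstl1, a stromal gene chosen after its values were seen, at -0.89. The Ctnnal1 split was present among the whole myofibers alone, and what set it was not tested. For Gsn and Ccl2, row position and preparation cannot be told apart.

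**Figure D3:**
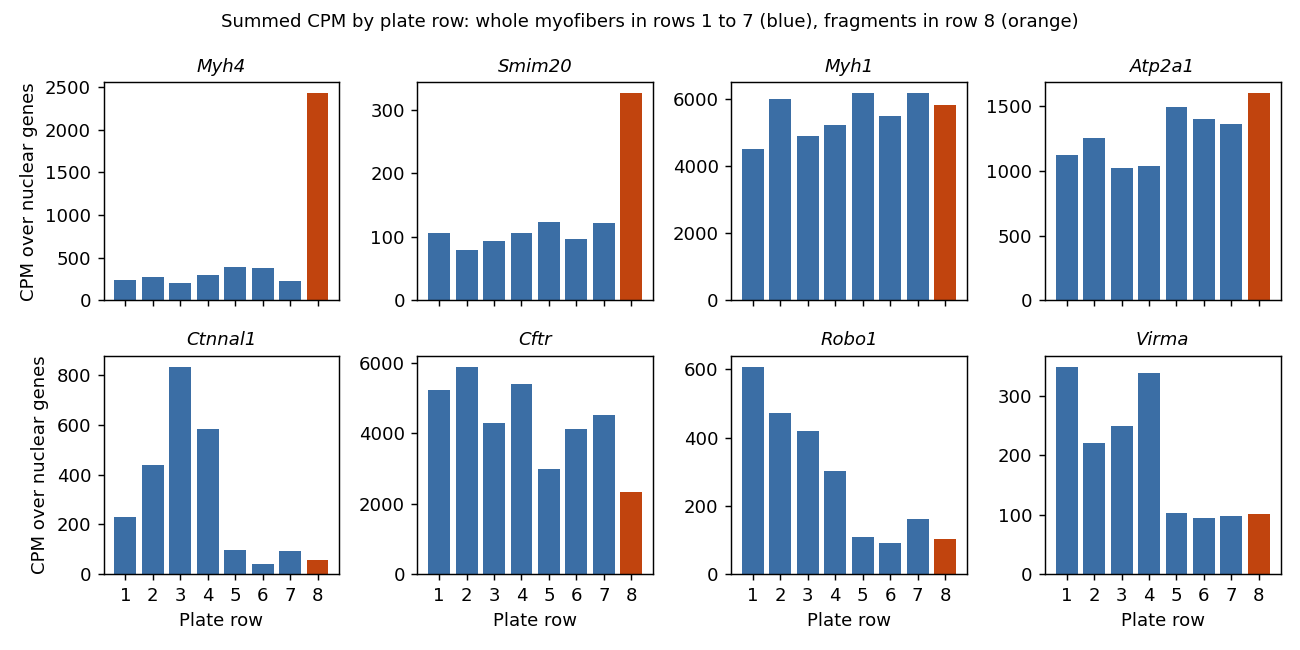
Summed CPM over nuclear genes (y axes, each from 0) by plate row (x axes), with whole myofibers in rows 1 to 7 (blue) and fragments in row 8 (orange). Myh4 and Smim20 stand above all 7 whole rows, whereas Ctnnal1, Robo1 and Virma in the fragments lie within the range of rows 5 to 7.

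The contractile and metabolic programs had list medians from 0.05 to 0.20, against -0.03 over all genes. Of all genes, 0.348% were at least 2-fold higher and 2.45% lower. A list with 0 members past 2-fold, here and in the lists that follow, is near that share. Of 13 measured thick filament genes, 2 were at least 2-fold higher, Myh4 and Myom2, and the list's median log2 ratio was 0.11. Thin filament genes had a median of 0.05 (0 of 15), from Tmod1 at -0.50 to Tnnc2, the fast troponin C, at 0.24. Titin and Z-disc genes had a median of 0.13 (0 of 20), with Ankrd23 highest at 0.36. The genes of excitation-contraction coupling had a median of 0.20 (0 of 15), and their sum was higher on 7 of 8 plates. Ryr1, the calcium release channel, was 4754 CPM in fragments against 4132 CPM in whole myofibers. Glycolysis and glycogen genes had a median of 0.14 (0 of 19), from Hk1 at -0.68 to Phka1, a subunit of phosphorylase kinase, at 0.61.

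Nuclear genes of the respiratory chain had a median of 0.16 (0 of 72), from Atp5k at -0.15 to Cox7a2 at 0.71, and those of the citric acid cycle and fatty acid oxidation 0.17 (0 of 25). Cytosolic ribosomal proteins had -0.01 (0 of 74). Nuclear-retained long noncoding RNAs, which would mark nuclei in a well, had 0.00 (0 of 6), and Malat1 was 1808 against 1535 CPM, higher on 4 plates and lower on 4. Genes suspected of collecting reads of ribosomal RNA, which was not tested, had 0.25 (0 of 5). Of the fragments' counts of one of them, Cdk8, 33.1% lay in 1 fragment.

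For injury and stress genes the counts past 2-fold were near the share over all genes (0.348% higher and 2.45% lower). Immediate early genes, which respond within minutes to damage or digestion, had a median of -0.06 (0 of 21), with Fos at 479 against 419 CPM and Ier3 at 59.2 against 114 CPM. Heat shock genes had 0.04 (0 of 18), with Hspa1a highest at 0.42 and Hspa5 lowest at -0.57. Of 14 atrophy and stress genes (median 0.04), 1 was lower, the metallothionein Mt2 (32.3 against 87.0 CPM). Of 18 genes of membrane repair and the costamere (median 0.06), 1 was lower, Anxa2, an annexin of membrane repair that fibroblasts also express (47.0 against 109 CPM). Dmd (dystrophin) was 1137 against 1008 CPM, higher on 8 of 8 plates at a log2 ratio of 0.17.

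No measured gene of specialised fiber regions differed 2-fold, which, beside 0.348% and 2.45% of all genes, is little different from the background. The neuromuscular junction list had a median of -0.12 (0 of 11), from Etv5 at -0.71 to Dok7 at 0.42. The myotendinous junction list had -0.13 (0 of 8), and its sum was lower in fragments on 8 of 8 plates, at 996 against 1109 CPM (log2 -0.15, limits -0.23 to -0.08). That level lay just below the whole rows, which ranged from 999 to 1233 CPM. Its lowest member was Maml2 (-0.66).

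**Figure D4:**
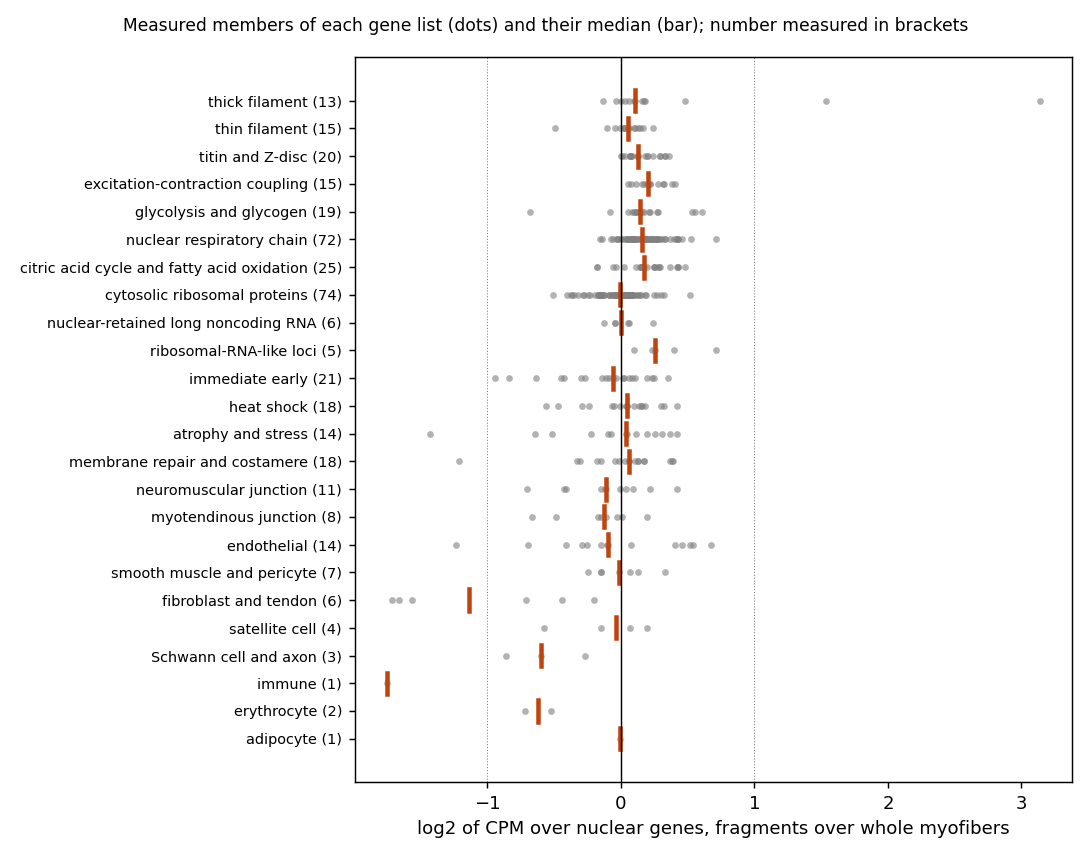
Log2 ratios of CPM over nuclear genes, fragments over whole myofibers (x axis), for each measured member (grey dots) of 24 gene lists (y axis, number measured in brackets), with the list's median as an orange bar and dotted lines at 2-fold. Most medians lie near 0, fibroblast and tendon genes lie at -1.14, and Myh4 and Myom2 stand apart from the other thick filament genes.

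The mt- genes were compared within their own total, as CPM over mt- counts. In the summed counts these genes held 50.9% of all gene counts in fragments and 54.7% in whole myofibers. The 2 mitochondrial ribosomal RNAs made up 48.9% of mt- counts in fragments and 55.9% in whole myofibers (log2 -0.19, SD over plates 0.20), and 60.8% in well-preserved whole myofibers. The share was lower in fragments on 7 of 8 plates. It lay within the range over whole rows, from 44.3% to 60.4%, and against row 7 alone the log2 ratio was 0.05. The median per cell was 44.6% in fragments and 49.6% in whole myofibers. The 11 protein-coding mt- genes among the deposited gene rows made up 51.0% and 43.9%, and the 14 transfer RNAs there 0.193% and 0.203%. Genes without a row, mt-Co3 and mt-Nd4 among them, do not enter these shares or the CPM over mt- counts.

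Among the single mt- genes, mt-Rnr2 and mt-Rnr1, the large and small ribosomal RNAs, had log2 ratios of -0.18 and -0.22, with mt-Rnr1 lower on 8 of 8 plates. Measured messages of complex I were higher or level, with mt-Nd1 and mt-Nd2 at 0.29, mt-Nd4l at 0.21 and mt-Nd6 at 0.10. The level one was mt-Nd5, at -0.01, with 4 plates on each side. mt-Cytb of complex III was at 0.24 and mt-Co1 of cytochrome c oxidase at 0.05, and mt-Co2, with few counts, at 0.21. The ATP synthase messages mt-Atp8 and mt-Atp6 were at 0.36 and 0.20. Of these, mt-Nd2 and mt-Cytb were higher on 8 of 8 plates. Measured transfer RNAs lay between -0.38 (mt-Ts2) and 0.04 (mt-Tp, mt-Ta), with plates on both sides. None of the mt- genes with at least 200 counts differed 2-fold.

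**Figure D5:**
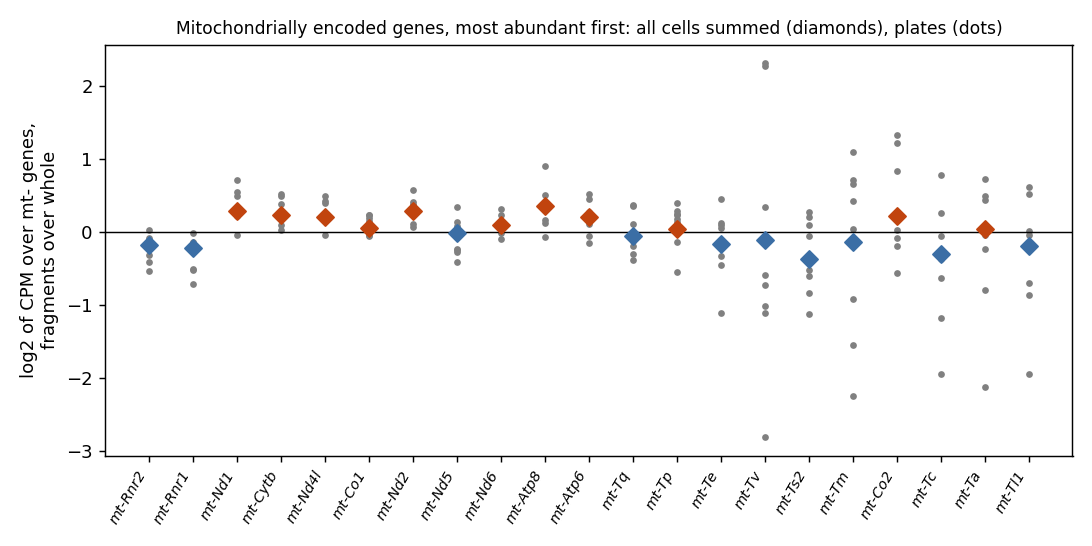
Log2 ratio of CPM over mt- genes, fragments over whole myofibers (y axis), for the mt- genes with at least 200 counts, ordered by their level in fragments (x axis). Diamonds are sums over all cells and grey dots the 8 plates: ribosomal RNAs lie below 0, most protein-coding genes lie above 0, and transfer RNAs with few counts spread widely.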

How the data were processed

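Single wells were sequenced by mcSCRB-seq, a plate method that tags RNA molecules with unique molecular identifiers (UMIs). The authors mapped reads to GRCm38 with spike-in sequences (STAR 2.5.4b, per the labels) and counted UMIs per gene with zUMIs, so the deposited values are estimated counts of molecules, all whole in the gene rows and not normalized. Whether strand was used is not given in the sources used here, so overlapping genes may share counts. Each gene row was checked to hold whole numbers, and gene rows fell a median of 2.74% short of the listed total UMIs.

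CPM are a group's summed counts divided by its nuclear or mt- total. Limits are exact 95% Poisson, conditional binomial or Clopper-Pearson limits and cover counting error only. Plate values used 0.5 added counts. Genes needed 200 counts in both groups together, and 2-fold is a description, not a test. Named genes were the 12 highest and 12 lowest of at least 1000 counts with 1 direction on 8 plates, mt- genes, Myh genes, the highest, lowest and most abundant gene of each list, and the 10 most abundant genes, of which some are not reported here. Members and lists were chosen with earlier results of these data known. The steps were tested on simulated data. No count model was run, since all cells came from 1 mouse. Other limits, scalings, cells and rows were tried for counts of genes past 2-fold, list medians, named genes and the mitochondrial ribosomal RNA share. Some settings were also tried for counts per spike-in molecule, the share of wells kept and the Myh class shares. Genes outside the named set, list sums, per-cell Myh4 medians, counts of cells past a CPM limit and the comparison among fragments were not recomputed in this way. For some of those genes, values without top cells or against a block of rows are given. Analyses used Python 3.11.15, pandas 2.3.3, scipy 1.17.1 and, for TMM, edgeR 4.0.16. GENCODE vM21 (GRCm38) gave positions.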

Additional observations from a re-analysis of the deposited data

How the results depend on the processing

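No paired analysis was possible because no test was made; both kinds of well lay on every plate and lane, and the ratios within plates stand in its place. All limits cover counting error only; with 1 mouse, no alternative speaks to variation between animals. Myh4 kept its direction in 17 of 17 alternatives, from a log2 ratio of 1.70 without the Myh4-dominant cells to 3.45 with at least 40% mt- counts. Of the 408 values of the 24 leading genes, 19 turned sign, 15 of them without an mt- minimum.

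The number of genes at least 2-fold higher, 19 in the report, was 4 with cells thinned to 5000 counts (574 genes tested at the same count minimum), 10 with the mean of the plates' ratios, 208 at 50 counts per gene, 4 at 1000, 105 at 1.5-fold, 3 at 3-fold, 8 without top cells and 12 to 17 without 1 lane. The number at least 2-fold lower, 134 in the report, was 9 with thinned cells, 16 against row 7 only (1702 genes tested), 20 against rows 5 to 7 (2928 tested), 916 at 50 counts, 14 at 1000, 516 at 1.5-fold, 34 at 3-fold, 214 without top cells and 63 to 150 without 1 lane (lane 1 and lane 2). Fewer genes reached the count minimum where fewer cells or counts were used: of the 134 genes themselves, 93 were past 2-fold with thinned cells, 57 against row 7 and 61 against rows 5 to 7, and of the 19, 9 with thinned cells and 10 against row 7. Without an mt- minimum, where well-preserved whole myofibers and the fragments of low mt- share enter, the counts were 2469 and 881. The rule kept 32.3% of fragments with 5000 genes detected and 69.9% with 40% mt- counts.

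Without an mt- minimum the list medians moved to -0.49 for thick filament, -0.40 thin filament, -0.34 titin and Z-disc, -0.20 excitation-contraction coupling, -0.28 glycolysis, -0.43 respiratory chain, -0.36 citric acid cycle, -0.58 ribosomal proteins, -0.46 heat shock, -0.25 atrophy, -0.25 membrane repair, -0.51 neuromuscular junction, -0.32 myotendinous junction, 2.38 endothelial, 1.33 smooth muscle, 1.11 Schwann cell and 1.05 adipocyte. Fibroblast and tendon turned to 0.55 and immune to 0.22. So did Vmn2r73 (0.0407), Tek (0.15), Nfkb1 (0.21), Il1rapl2 (0.23), Virma (0.22), Csmd1 (0.44), Cftr (0.36), Anxa2 (0.20), Gsn (0.18) and Lyz2 (0.67). Leading genes that were higher in fragments turned as well. They included Atp2a1 (-0.88), Hdgf (-0.44), Cap2 (-0.43), Atp5f1 (-0.31), Ndufv2 (-0.25), Fsd2 (-0.20) and Mylk4 (-0.13). Fibroblast and tendon ran from -2.06 to -1.11 without 1 lane. Against row 7 only, the mitochondrial ribosomal RNA share was at 0.0493, ribosomal-RNA-like loci at 1.00 and Virma at 0.0333, and Virma was at 0.0129 against rows 5 to 7. With thinned cells, the myotendinous junction list was at -0.40. The cause was not tested. The comparisons without top cells, without Myh4-dominant cells and with rows 5 to 7 were added after the data were seen. TMM scaling shifted all log2 ratios by 0.06.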

Other observations

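The fragments outside the limits include 3 with over 5000 genes and an mt- share under 20%. They lay on plates 708, 710 and 706, with 116079, 124414 and 42291 gene counts and mt- shares of 18.2%, 13.7% and 19.9%. Their Myh4 levels were 242, 196 and 266 CPM, against 2435 CPM in the 83 fragments, of which 13 were Myh4-dominant. Beside Myh1, at 11542, 1723 and 9619 CPM, Myh4 was low on plates 708 and 706. It was larger relative to Myh1 on plate 710. The fragments of plates 708 and 706 held 85366 and 59986 CPM of Ttn and 31246 and 38329 CPM of Acta1. These levels were near the 62630 and 31305 CPM of the well-preserved whole myofibers. Both had at most 1 count each of Pecam1, Cdh5 and Egfl7, which mark endothelium, but Tek had 3 counts on plate 708. The full endothelial list summed to 168 and 354 CPM in the lowest and middle of the 3 fragments. Its median per well-preserved whole myofiber was 192 CPM.

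The fragment on plate 710 was of another kind. It held 13889 CPM of Ttn and 8887 CPM of Acta1, together with 24 counts of Pecam1 and 23 of Cdh5 (endothelium), 81 of Rgs5 (pericytes), 29 of Col1a2 (fibroblasts) and 13 of Pax7 (satellite cells). With 14177 genes it had more genes detected than any of the 83 fragments. Its endothelial markers summed to 3931 CPM, above each of the 168 well-preserved whole myofibers, which reached at most 3740 CPM. Over the 83 fragments and the 346 whole myofibers these markers summed to 1427 and 1577 CPM. Of the endothelial counts of the 83 fragments, 17.8% lay in 1 fragment, so that single wells rich in these markers were also found there. The fragment on plate 710 is 1 well, and whether it held several cells was not tested.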
